A study of Rattus norvegicus with 8 samples.

Results

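The genes described here encode the transforming growth factor beta (TGF-beta), bone morphogenetic protein (BMP) and activin signalling system in the cervix of pregnant rats. They were chosen by symbol alone: the 3 TGF-beta ligands and their receptors, the numbered BMP and GDF ligands, BMP and activin receptors, inhibin subunits, SMADs, latent TGF-beta binding proteins, secreted antagonists and a few target genes. Of the 29884 rows of the deposited table, 67 met that rule, and 60 of them passed the filter on low counts. The study injected wild-type Sprague-Dawley rats into the peritoneum on gestational day 17, either with 100 µg/kg lipopolysaccharide (LPS), the outer membrane glycolipid of Gram-negative bacteria, or with the same volume of phosphate-buffered saline (PBS). Cervical tissue was taken 12 hours later, and each group held 4 libraries, named PBS1 to PBS4 and LPS1 to LPS4 here, which the series' design text calls biological replicates. The labels do not say which part of the cervix was taken, give no age of the dams and name no batch. The study's title calls the LPS animals a model of preterm birth, and the labels hold no measure of delivery.

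Ligands of this family are secreted dimers that bring together type I and type II serine/threonine kinase receptors. TGF-beta and activin receptors phosphorylate SMAD2 and SMAD3, BMP receptors phosphorylate SMAD1, SMAD5 and SMAD9, and both kinds of SMAD enter the nucleus with SMAD4. SMAD6 and SMAD7 are inhibitory SMADs that the pathway itself induces, and the Id genes, which encode dominant-negative helix-loop-helix proteins, are classic targets of BMP signalling. In the pregnant cervix TGF-beta is known for its part in matrix turnover.

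Total counts ranged from 33191039 to 40634384 per library, and the members together took 0.315% to 0.363% of the counts. Levels are in CPM, the count normalised to the library's total, scaled between libraries by edgeR's TMM factors. Changes are log2 fold changes, LPS minus PBS, each with a standard error (SE) and an edgeR p adjusted over the 16117 genes tested. Rises and falls are those whose adjusted p lay below 0.05. Of the markers of the labelled tissue, the squamous keratins Krt5 (2177 to 4047 CPM) and Krt14 and the reproductive tract genes Esr1, Pgr and Hoxa13 were read in all 8 libraries, while the squamous keratin Krt4 lay below the filter. Krt13, a keratin of suprabasal squamous cells, fell from 2197 ± 935 to 94.9 ± 48.5 CPM, Pgr fell by 0.63 (adjusted p = 0.037) and Hoxa13 rose by 0.54 (adjusted p = 0.0297). The 6 reproductive tract genes summed to 458 to 554 CPM in PBS and 482 to 697 CPM in LPS. Since the tissue is a mixture, fewer cells of a type and less RNA per cell cannot be told apart. Markers of several cell types moved with the group. The summed level of 8 smooth muscle markers ran from 3485 to 9873 CPM in PBS and from 3004 to 4278 in LPS, with 5 of 8 tested members lower. That of 7 fibroblast markers ran from 9554 to 11940 CPM in PBS and from 13859 to 21847 in LPS, with 4 of 7 higher. Neutrophil markers summed to between 34.0 and 57.0 CPM in PBS and between 388 and 1621 in LPS, with 6 of 6 tested higher, Elane below the filter and Ltf at 0 in every library. Macrophage and monocyte markers went from between 591 and 907 CPM to between 1123 and 1775, with 5 of 8 higher and 1 lower. Endothelial markers ran from 343 to 743 CPM in PBS and 363 to 542 in LPS (2 of 8 lower), and squamous markers from 4909 to 9151 and 3177 to 4216 (2 of 7 lower, Krt13 and Sprr1a). Of the squamous sum, Krt13 alone held 1383 to 3536 CPM in PBS and 54.3 to 162 in LPS. The other 5 squamous genes tested did not pass, with Krt14 (0.12) and Tp63 (0.14) above 0 and Krt5, Krt6a and Dsg3 below. Markers of neurons and Schwann cells ran from 141 to 223 CPM in PBS and 23.7 to 157 in LPS (2 of 8 lower), and those of red cells and platelets from 141 to 438 and 36.9 to 131 (3 of 5 lower). Lymphocyte markers (78.6 to 135 and 73.9 to 122, 1 of 6 higher) and columnar markers (16290 to 27195 and 21865 to 23247, 0 of 7 called) overlapped. The part of these shifts in the changes below was not tested.

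LPS changed a few members of the pathway in both directions and left most without a call. The BMP targets Id1 and Id4, the ligand Bmp2, the inhibitory SMAD gene Smad7, the activin subunit Inhbb and the BMP antagonist Chrdl1 fell. The BMP antagonist Grem1, the activin subunit Inhba, the co-receptor Tgfbr3, the procollagen protease Bmp1 and the matrix gene Tgfbi rose. These are 5 members higher and 6 lower among 60 tested, or 18.3%, against 16.9% of all genes tested. At an unadjusted p under 0.05 there were 21 members, against 32.6% of all genes. By direction, 8.33% of the members rose against 9.49% of all genes, and 10% fell against 7.45%. The median log2 fold change was -0.05 over the 60 members and 0.01 over all genes. In 14 members (23.3%) the 4 LPS libraries did not overlap the 4 PBS libraries, against 23.4% of all genes tested. LPS lay above in 5 of them (8.33%, against 12.9%) and below in 9 (15%, against 10.5%). The count of higher members rested on single libraries: it was 1 (1.67%, against 6.9% of all genes) when LPS3 was omitted. It was 2 when PBS2, PBS3 or LPS2 was omitted (3.28% to 3.33%, against 5.53% to 7.52%). It was 3 when PBS4, LPS1, or the pair PBS1 and LPS2 were (4.92% to 5.08%, against 7.02% to 7.53%). Gdf3, below the filter with all 8 libraries, is among those counted with PBS2, PBS3 or PBS4 omitted. The count of lower members was 3 (5.08%, against 5.39% of all genes) with the pair PBS1 and LPS2 omitted. With DESeq2 it was 11 (18.3%, against 13% of all genes).

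**Figure D1:**
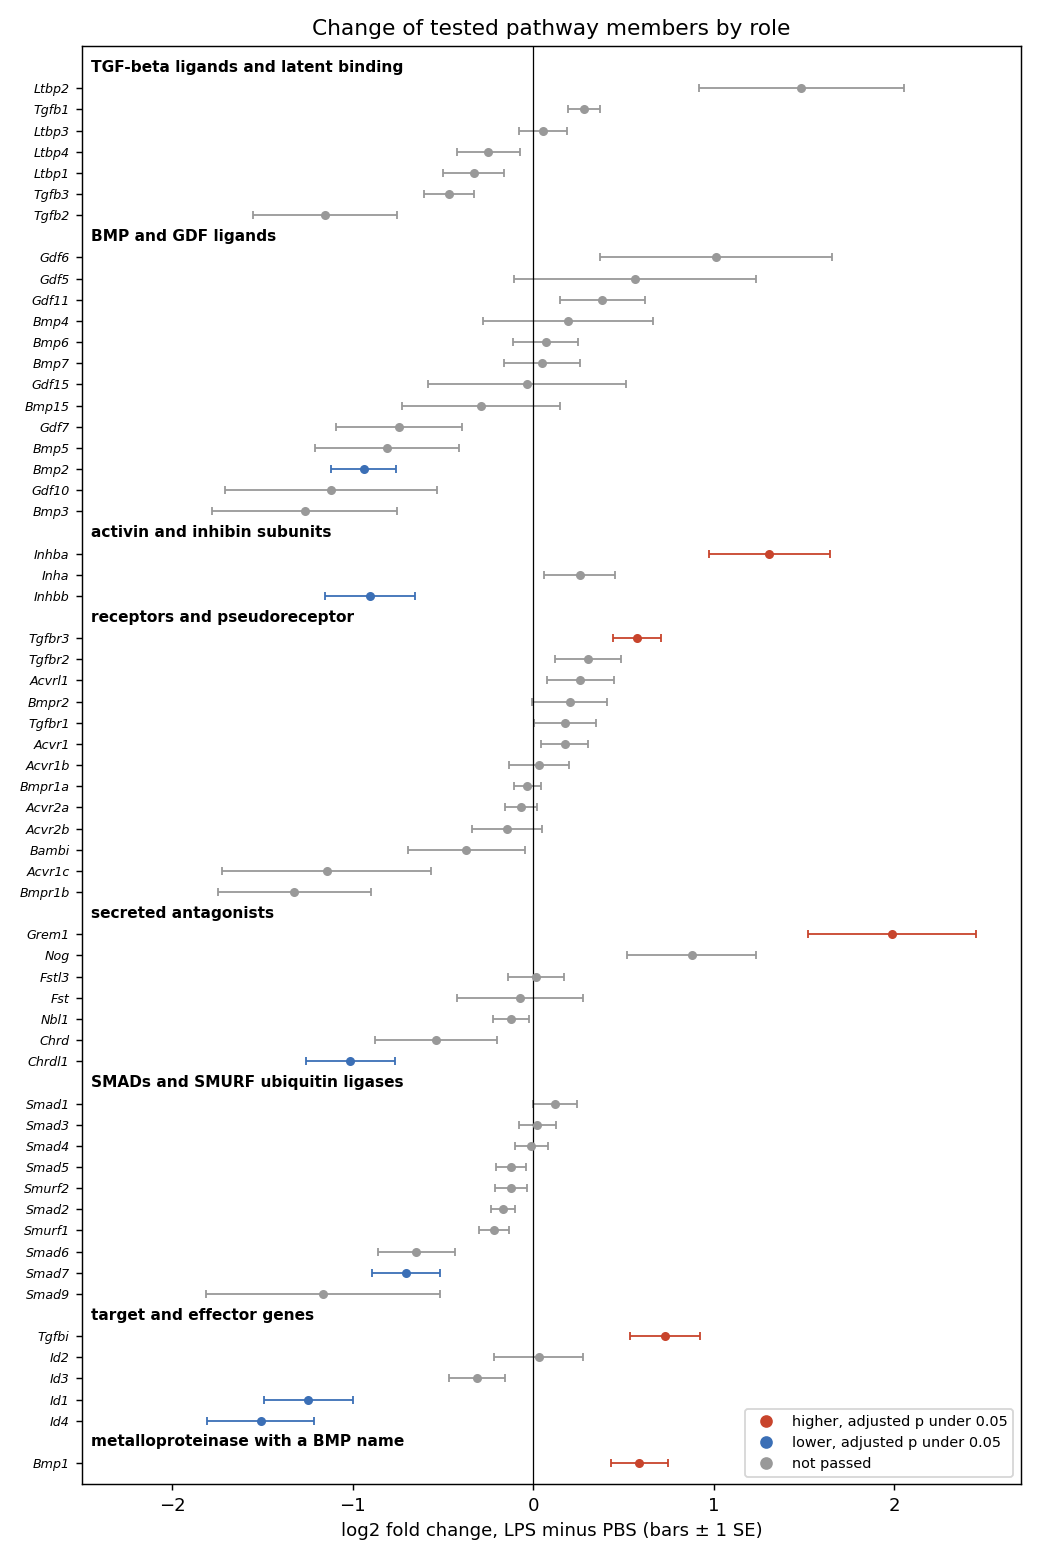
Log2 fold change, LPS minus PBS, of the tested members (1 not reported here is left out), grouped by role, with bars of 1 SE. The 5 members that rose (red) and the 6 that fell (blue) are spread over several roles, and those in grey did not pass.

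Id4 and Id1, targets of BMP signalling, had the largest called falls of the family. Id4, an inhibitor of helix-loop-helix transcription factors, was at 117, 87.6, 121 and 48.1 CPM in PBS replicates 1 to 4 and at 37.8, 35.9, 22.1 and 35.6 CPM in LPS replicates 1 to 4. Every LPS library lay below every PBS library, and PBS4 was the nearest to the LPS group. The change was -1.51 (SE 0.29, adjusted p = 0.011). Id1, which holds back differentiation in many cell types, was at 61.0, 67.1, 46.7 and 66.8 CPM in PBS and at 20.8, 22.8, 18.3 and 39.9 CPM in LPS. Its groups did not overlap either, with LPS4 the highest of its group, and the change was -1.25 (SE 0.25, adjusted p = 0.0115). With the pair PBS1 and LPS2 omitted it was -1.20 (adjusted p = 0.0515). The lowest PBS library of Id4, PBS4, also had the lowest smooth muscle marker sum of its group. Its endothelial, macrophage and monocyte, lymphocyte and reproductive tract marker sums were the lowest of the group too, and its squamous sum was the highest. The part of any of these in the Id4 values was not tested. Both falls were called whichever single library was left out, with values of -1.73 to -1.36 for Id4 and -1.55 to -1.12 for Id1.

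The other members of the Id family did not pass. Id3, which is a BMP target in many cell types, was at 35.5 to 56.2 CPM in PBS and 31.6 to 40.5 CPM in LPS, a difference of -0.31 (SE 0.15, adjusted p = 0.201). Id2 was at 33.2 to 44.7 CPM in PBS. In LPS it was at 28.3, 29.7 and 34.9 CPM in replicates 1, 2 and 4 and at 62.0 CPM in replicate 3, so that the difference was 0.03 (SE 0.24, adjusted p = 0.949), and -0.29 with LPS3 omitted (adjusted p = 0.177). Whether Id1 and Id4 differed from Id2 and Id3 in their response was not tested. Tgfbi, a secreted matrix protein induced by TGF-beta, was at 79.4, 70.7, 62.6 and 72.5 CPM in PBS and at 138, 122, 139 and 73.2 CPM in LPS. LPS replicates 1, 2 and 3 stood above the PBS range and replicate 4 inside it. The rise was 0.73 (SE 0.19, adjusted p = 0.0346). Of the 8 fits with 1 library omitted, those lacking PBS1 or LPS4 called it and the other 6 did not (0.64 to 0.90). It was not called with the pair PBS1 and LPS2 omitted either (adjusted p = 0.0856).

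The sequences before the start sites of 4 of the members with the largest called changes are shown because these genes lay at both ends of the response. They are the 250 bases before the RefSeq start, in build GRCr8, 5′ to 3′. Capitals mark TATAAA, the core of a TATA box, and GGCGCC, a motif bound by the SMADs of the BMP branch.
Id1, chr3:161671314-161671563, plus strand: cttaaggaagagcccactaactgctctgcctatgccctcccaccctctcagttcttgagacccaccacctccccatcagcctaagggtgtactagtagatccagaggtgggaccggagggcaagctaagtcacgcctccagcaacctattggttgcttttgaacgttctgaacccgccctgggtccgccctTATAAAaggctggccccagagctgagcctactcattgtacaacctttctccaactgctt
Id4, chr17:16598294-16598543, minus strand: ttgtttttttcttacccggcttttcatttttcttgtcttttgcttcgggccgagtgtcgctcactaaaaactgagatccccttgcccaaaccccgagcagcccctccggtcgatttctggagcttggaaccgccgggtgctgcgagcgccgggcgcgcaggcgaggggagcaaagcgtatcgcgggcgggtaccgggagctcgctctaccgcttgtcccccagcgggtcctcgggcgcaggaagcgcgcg
Inhba, chr17:53804509-53804758, minus strand: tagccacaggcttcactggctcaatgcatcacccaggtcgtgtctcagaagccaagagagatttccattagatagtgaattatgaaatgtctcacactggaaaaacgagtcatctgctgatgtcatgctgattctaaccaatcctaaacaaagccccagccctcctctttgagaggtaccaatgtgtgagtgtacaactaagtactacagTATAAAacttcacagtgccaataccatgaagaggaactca
Grem1, chr3:120978320-120978569, minus strand: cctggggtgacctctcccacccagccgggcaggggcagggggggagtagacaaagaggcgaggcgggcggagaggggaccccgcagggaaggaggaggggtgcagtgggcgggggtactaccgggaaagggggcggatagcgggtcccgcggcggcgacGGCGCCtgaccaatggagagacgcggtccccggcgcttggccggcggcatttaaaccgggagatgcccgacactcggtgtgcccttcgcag

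Of the 67 members, 54 were matched by symbol to a RefSeq window, the first listed one where there were several. Bmp2 and Bmp1 were among the 13 others. Both strands were searched for GGCGCC, for TATAAA, for the short SMAD box GTCTG, and for its palindromic double GTCTAGAC. GGCGCC occurred in 14 of 54 members (25.9%), in 8.72% of all 33360 windows and in 15.9% of the 12559 windows of tested genes. It lay 91 bases before the start of Grem1, 66 before that of Tgfbr3 and 112 before that of Tgfbi, which rose. It also lay 96 and 36 bases before the start of Smad7, and 203 and 26 before that of Inhbb, which fell, so that it was found on both sides of the response. GTCTG was in 13 of 54 members (24.1%) in 42.9% of all windows and in 42.2% of the windows of tested genes, and in 0 of the 9 called members that had a window. GTCTAGAC, which holds no GTCTG, was in 0 of 54 members, in 0.174% of all windows and in 0.191% of those of tested genes. An NF-kB motif, searched as well, was in 0 of 54 members and in 0.414% of the windows of tested genes. TATAAA lay 59 bases before the start of Id1 and 40 before that of Inhba. It was in 7 of 54 members (13%), in 12.9% of all windows and in 7.31% of the windows of tested genes. A match is a run of letters and not a measured binding site.

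**Figure D2:**
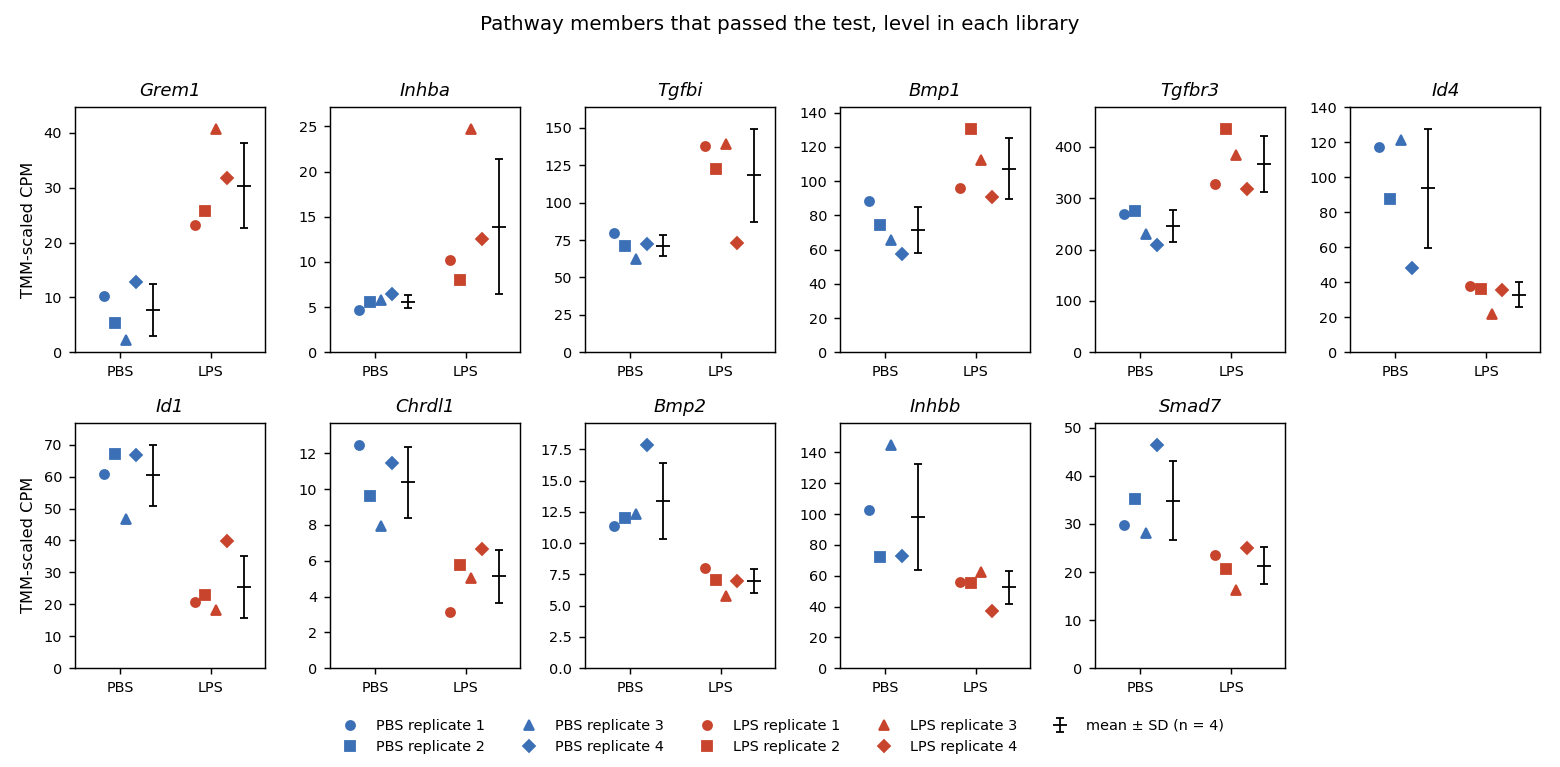
Level (TMM-scaled CPM, linear axes from 0) of the 11 members that passed the test in each of the 4 PBS (blue) and 4 LPS (red) libraries, with the mean ± SD beside them. The groups overlap only for Tgfbi, whose LPS4 (73.2 CPM) lies among the PBS libraries.

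Among the BMP and GDF ligands, 1 of 13 tested passed, Bmp2. This BMP, which acts through SMAD1 and SMAD5, was at 11.3, 12.0, 12.3 and 17.9 CPM in PBS and at 8.05, 7.04, 5.77 and 6.99 CPM in LPS. All 4 LPS libraries lay below the lowest PBS library. It fell by 0.94 on the log2 scale (SE 0.18, adjusted p = 0.00979), and leaving out any single library kept the call, with -1.02 to -0.77. The related Bmp4 overlapped widely, with 4.51 to 10.6 CPM in PBS and 9.71, 2.25, 11.8 and 9.66 CPM in LPS replicates 1 to 4 (0.19, SE 0.47, adjusted p = 0.812). Bmp7, a ligand of epithelia, was at 20.1 to 30.1 CPM in PBS and 16.4 to 31.9 CPM in LPS (0.05, SE 0.21, adjusted p = 0.902). LPS2 held the lowest Bmp4 value of all 8 libraries.

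Of the other BMP and GDF ligands tested, 0 passed. Their changes ran from -1.27 for Bmp3 (0.532 to 3.01 CPM over the 8 libraries) to 1.01 for Gdf6 (0.0741 to 0.717 CPM). Gdf10, a growth factor of the BMP3 group, was at 16.1 to 43.0 CPM in PBS and 2.08 to 21.2 CPM in LPS (-1.12, SE 0.59, adjusted p = 0.224). Gdf15, a stress-induced ligand, differed more within groups than between them, with 17.7 to 49.3 CPM in PBS and 12.6 to 63.1 CPM in LPS (-0.04, SE 0.55, adjusted p = 0.971). Bmp15, known as an oocyte factor, was read at 0.371 to 1.13 CPM over all 8 libraries (-0.29). Gdf7 had a difference of -0.74 (SE 0.35, adjusted p = 0.176), and Bmp5, Bmp6, Gdf5 and Gdf11 lay between -0.81 and 0.56.

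Of the 7 members below the filter, Bmp10, Gdf1 and Inhbc had 0 counts in every library, where 3 counts would be 0.0738 to 0.0904 CPM. Gdf2 had 1 count in all, Gdf9 had at most 2 in a library and Inhbe at most 5. Gdf3, a ligand known from early embryos, had more. It had 2, 0, 1 and 1 counts in PBS replicates 1 to 4 and 26, 17, 15 and 9 counts in LPS replicates 1 to 4. The sums of 4 and 67 counts give a ratio of 16.1 with a 95% counting interval of 6.02 to 60.9, which covers counting error only. With no filter on low counts Gdf3 was called (3.84, SE 0.73, adjusted p = 0.00955). It was picked out after its values were seen.

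The 3 TGF-beta ligands pointed different ways, and 0 of 7 genes in the group of ligands and latent binding proteins passed. Tgfb1, the isoform of immune and stromal cells, was at 60.8, 52.5, 58.1 and 53.6 CPM in PBS and at 73.4, 69.2, 72.0 and 58.9 CPM in LPS. LPS4 lay inside the PBS range, and the difference was 0.28 (SE 0.09, adjusted p = 0.0634). Without that library it was 0.35 and passed (adjusted p = 0.0281). With any other single library omitted Tgfb1 did not pass (adjusted p of 0.061 to 0.164). It was called higher with DESeq2 (adjusted p = 0.0397) and with limma-voom with quality weights (adjusted p = 0.0446). Tgfb3 differed in the other direction, at 34.2, 43.3, 33.6 and 38.5 CPM in PBS and 24.1, 23.3, 26.5 and 34.1 CPM in LPS. Again only LPS4 reached the PBS range, and the difference was -0.47 (SE 0.14, adjusted p = 0.0519), or -0.60 without it (adjusted p = 0.0136). With any other single library omitted Tgfb3 did not pass (adjusted p of 0.0574 to 0.14). Tgfb3 also passed with RLE scaling, with the stricter filter, with DESeq2 and with limma-voom.

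Tgfb2 spread widely among the control animals. It was at 111, 44.6, 66.5 and 23.1 CPM in PBS and at 23.6, 29.7, 29.6 and 27.3 CPM in LPS, so that the LPS libraries lay close together and PBS4 lay just below them. The difference was -1.15 (SE 0.399, adjusted p = 0.0821), and it moved with single control libraries, to -1.43 with PBS4 omitted (adjusted p = 0.017) and to -0.70 with PBS1 omitted (adjusted p = 0.154). DESeq2 called Tgfb2 lower (adjusted p = 0.0167), and limma-voom did not, with or without quality weights (adjusted p of 0.139 and 0.164). PBS4 also had the lowest summed smooth muscle markers of the PBS group (3485 CPM, against 8243 to 9873 in the other PBS libraries), which lies inside the LPS range. Its endothelial, macrophage and monocyte, lymphocyte and reproductive tract marker sums were also the lowest of the PBS group, and its squamous sum was the highest. The part of the smooth muscle content, or of any of these, in Tgfb2 was not tested. Ltbp2, a latent TGF-beta binding protein family member of microfibrils, spread from 2.31 to 16.9 CPM in PBS and from 11.9 to 33.5 CPM in LPS (1.49, SE 0.57, adjusted p = 0.109). Ltbp2 was called higher with DESeq2 and with PBS1 omitted. Ltbp1, Ltbp3 and Ltbp4, which tether latent TGF-beta to the matrix, had values of -0.33 to 0.05.

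**Figure D3:**
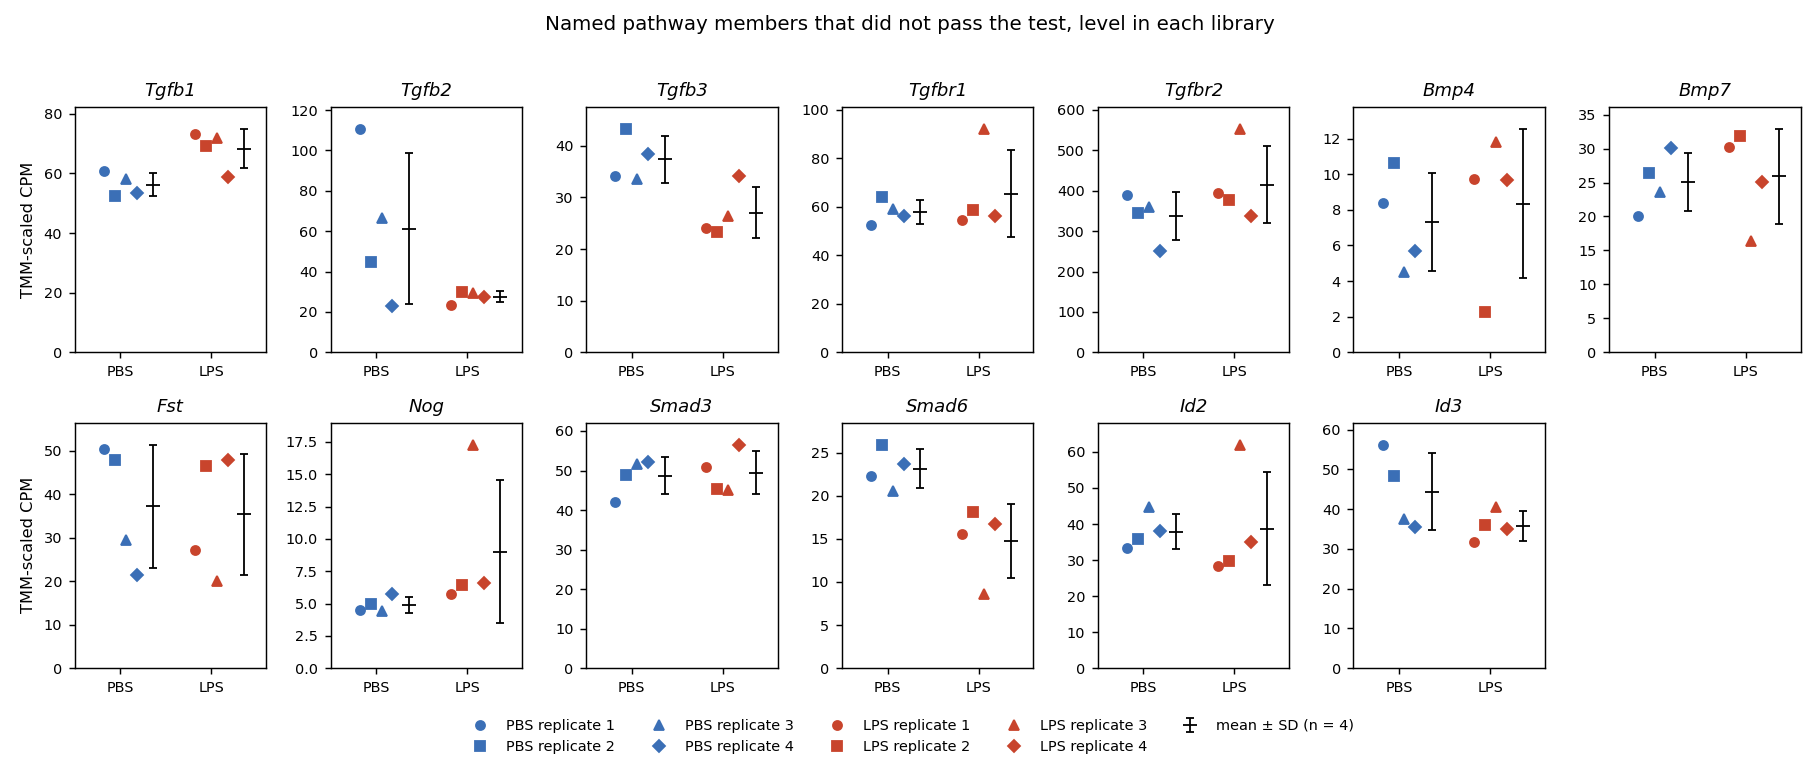
Level (TMM-scaled CPM, linear axes from 0) of 13 further ligands, receptors, antagonists, SMADs and Id genes in each PBS (blue) and LPS (red) library, with the mean ± SD beside them. None passed the test, and LPS3 is the highest of its group for Tgfbr1 (92.0 CPM), Nog (17.3 CPM) and Id2 (62.0 CPM).

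The activin subunits moved apart. Inhba, whose dimer is activin A, was at 4.65, 5.52, 5.77 and 6.47 CPM in PBS and at 10.2, 8.01, 24.7 and 12.6 CPM in LPS. Each LPS library lay above each PBS library, and LPS3 was the highest. It rose by 1.31 (SE 0.33, adjusted p = 0.0302), or by 0.88 with LPS3 omitted (adjusted p = 0.0279). Omitting any one of the 4 PBS libraries ended the call (adjusted p of 0.0536 to 0.0829), as did limma-voom. Inhbb, whose dimer is activin B, was at 103, 72.0, 145 and 72.8 CPM in PBS and at 55.7, 55.0, 62.1 and 36.9 CPM in LPS. Here each LPS library lay below each PBS library. It fell by 0.90 (SE 0.25, adjusted p = 0.0407). Its call held with PBS2 or PBS4 omitted and ended with any of the other 6 libraries, or the pair PBS1 and LPS2, omitted (-1.03 to -0.65 over the single omissions). Inha, the alpha subunit that turns these dimers into inhibins, was at 2.59 to 3.96 CPM over the 8 libraries (0.26, SE 0.20, adjusted p = 0.401).

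Fst encodes follistatin, which binds and neutralises activin. It was at 50.4, 47.7, 29.4 and 21.3 CPM in PBS and at 27.2, 46.5, 20.0 and 47.8 CPM in LPS, with full overlap (-0.07, SE 0.35, adjusted p = 0.909). The ratio of Inhba to Fst within a library, on the log2 scale, was -2.65 ± 0.77 in PBS and -1.39 ± 1.22 in LPS (mean ± SD, n = 4 per group). The difference of 1.26 was within what reassigning the libraries gave (exact two-sided permutation p = 0.143, adjusted p = 0.171 over 4 ratios). With LPS3 omitted it was 0.695. Fstl3, a relative of follistatin, did not differ detectably (0.02, SE 0.16, adjusted p = 0.957).

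The secreted BMP antagonists also split. Grem1, gremlin 1, which binds BMP2, BMP4 and BMP7, had the largest called rise of the family. It was at 10.2, 5.42, 2.29 and 12.7 CPM in PBS and at 23.2, 25.8, 40.7 and 31.8 CPM in LPS, and the groups did not overlap. The rise of Grem1 was 1.99 (SE 0.46, adjusted p = 0.0222), which is 3.97-fold. Omitting PBS2 ended the call (1.85, adjusted p = 0.0701), and so did omitting LPS3 (1.82, adjusted p = 0.0548). Beside it, Pdgfra, a marker of fibroblasts, rose from 242 ± 47.2 to 577 ± 126 CPM and Dcn from 1245 ± 34.2 to 3449 ± 787 CPM. They are among the 4 of 7 fibroblast markers that rose. Col1a1 (0.17), Dpt (-0.26) and Pi16 (-0.48) of the same list did not pass. The part of the fibroblast markers in the rise of Grem1 was not tested.

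Chrdl1, chordin-like 1, another binder of BMPs, went the other way. It was at 12.5, 9.63, 7.93 and 11.4 CPM in PBS and at 3.11, 5.76, 5.01 and 6.63 CPM in LPS, with no overlap. It fell by 1.02 on the log2 scale (SE 0.25, adjusted p = 0.0259), but omitting PBS1, PBS2, PBS4 or LPS3 ended the call (adjusted p of 0.0542 to 0.0623), as did omitting the pair PBS1 and LPS2. Nog, noggin, was at 4.41 to 5.75 CPM in PBS and at 5.76, 6.45, 17.3 and 6.60 CPM in LPS, where replicate 3 stood far above the rest. Its difference was 0.88 (SE 0.36, adjusted p = 0.127), or 0.35 without that library. Chrd, chordin, was at 82.6 to 121 CPM in PBS and at 43.4, 138, 61.8 and 53.9 CPM in LPS (-0.54, SE 0.34, adjusted p = 0.307). LPS2 was the highest of all 8 libraries for Chrd and the other 3 LPS libraries were the lowest, and with LPS2 omitted Chrd was called lower. Nbl1, a further BMP binder, had a value of -0.12 (191 to 253 CPM).

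Within libraries, the RNA of the BMP ligand Bmp4 was set against that of the antagonist Grem1. The log2 ratio of Bmp4 to Grem1 was 0.12 ± 1.04 in PBS and -2.07 ± 0.99 in LPS (n = 4 per group), a difference of -2.19. Since Grem1 rose by 1.99 and Bmp4 differed by 0.19, this ratio mostly restates the rise of Grem1. It does not cover other antagonists, such as Chrdl1, which fell. All 4 LPS libraries (-3.51 to -1.26) were below all 4 PBS libraries (-1.16 to 0.97), although LPS1 and PBS4 were close. The exact two-sided permutation p was 0.0286, the smallest that 70 permutations can give, and 0.114 adjusted over the 4 ratios. The log2 ratio of Bmp2 to Bmp4 was 0.93 ± 0.73 and -0.03 ± 1.16 (exact permutation p = 0.171, adjusted p = 0.171). That of Tgfb1 to Tgfb3 was 0.595 ± 0.263 and 1.35 ± 0.38 (exact permutation p = 0.0857, adjusted p = 0.171). None of the 4 ratios passed after adjustment.

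Of the 13 receptors, the pseudoreceptor Bambi included, 1 passed. Tgfbr3, betaglycan, which presents TGF-beta2 and inhibin to the kinase receptors, was at 270, 275, 231 and 208 CPM in PBS and at 327, 435, 384 and 319 CPM in LPS. The groups did not overlap, and it rose by 0.57 (SE 0.13, adjusted p = 0.0221), or 49%. Omitting PBS3, LPS2, LPS3 or the pair PBS1 and LPS2 ended the call (adjusted p of 0.0506 to 0.0613). The kinase receptors of TGF-beta gave no call. Tgfbr1 was at 52.3 to 63.8 CPM in PBS and at 54.3, 58.7, 92.0 and 56.3 CPM in LPS (0.18, SE 0.17, adjusted p = 0.518). Tgfbr2 was at 252 to 389 CPM in PBS and at 336 to 553 CPM in LPS (0.30, SE 0.18, adjusted p = 0.292), and LPS3 was the highest for both.

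The BMP and activin receptors gave no call. Bmpr1a, a type I BMP receptor, was at 53.2 to 63.4 CPM in PBS and 55.9 to 59.0 CPM in LPS (-0.03, SE 0.08, adjusted p = 0.805). Acvr1, another type I receptor, had the lowest coefficient of variation of the 60 tested members over the PBS libraries. It was 1.91% (23.8 to 24.9 CPM), where the median member had 17.3%. Over the LPS libraries it was 19.5% (21.8 to 34.2 CPM), where the median member had 25.1%. Because Acvr1 was the lowest of 60 in PBS, its higher value in LPS is not read as an effect of LPS. Bmpr2, the type II BMP receptor, was at 144 to 150 CPM in PBS, at 146, 142 and 133 CPM in LPS1, LPS2 and LPS4, and at 262 CPM in LPS3 (0.20, adjusted p = 0.542). Bmpr1b, a further type I BMP receptor, was at 10.1, 12.3, 14.6 and 11.2 CPM in PBS and at 4.79, 6.68, 1.32 and 6.46 CPM in LPS. The groups of Bmpr1b did not overlap, and the difference was -1.32 (SE 0.42, adjusted p = 0.0643). It was called lower with DESeq2, with both limma-voom fits and with LPS3 omitted. Acvr1b, Acvr1c, Acvr2a, Acvr2b, Acvrl1 and Bambi had values of -1.14 (Acvr1c, 0.205 to 2.34 CPM) to 0.26 (Acvrl1, 43.8 to 82.2 CPM).

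Inside the cell, 1 of 10 SMAD and SMURF genes passed, the inhibitory SMAD gene Smad7, and 8 of the 10 values lay below 0. Over all genes tested, 7857 of 16117 values did. Smad1, Smad2, Smad3, Smad4 and Smad5 had values of -0.17 to 0.12, with SEs of 0.07 to 0.12, and 0 of these 5 passed. With DESeq2 Smad2 was called lower. Smad9 was near the floor in some libraries (0.177 to 2.13 CPM, -1.17, SE 0.65, adjusted p = 0.25). Smad3 was at 42.1 to 52.2 CPM in PBS and 45.0 to 56.5 CPM in LPS (0.02, SE 0.10, adjusted p = 0.904). Smad7, which blocks the type I receptors, was at 29.8, 35.1, 28.1 and 46.5 CPM in PBS and at 23.5, 20.7, 16.3 and 24.9 CPM in LPS. Without overlap between groups, Smad7 fell by 0.71 on the log2 scale (SE 0.19, adjusted p = 0.0352). Omitting PBS2, PBS4, LPS1, LPS2 or LPS3 ended the call (adjusted p of 0.0582 to 0.0834), as did omitting the pair PBS1 and LPS2. Smad6, which mainly restrains BMP signals, was at 22.3, 25.9, 20.5 and 23.7 CPM in PBS and at 15.5, 18.1, 8.56 and 16.8 CPM in LPS. Here too the groups were apart, and the difference was -0.65 (SE 0.21, adjusted p = 0.0704). Omitting LPS3 gave -0.46, which passed (adjusted p = 0.0338). Smad6 was also called lower with DESeq2 and with limma-voom with quality weights. The ubiquitin ligases Smurf1 and Smurf2, which degrade SMADs and receptors, had values of -0.22 (adjusted p = 0.107) and -0.12 (adjusted p = 0.366).

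Bmp1 carries a BMP name but encodes a metalloproteinase that trims procollagens and also cleaves chordin. It was at 88.3, 74.2, 65.8 and 57.2 CPM in PBS and at 96.1, 130, 112 and 90.7 CPM in LPS. The groups did not overlap, though LPS4 and PBS1 were close. Bmp1 rose by 0.59 (SE 0.16, adjusted p = 0.037). Its call held with PBS1 or LPS4 omitted and ended with any other single library omitted (0.47 to 0.70 over all 8).

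**Figure D4:**
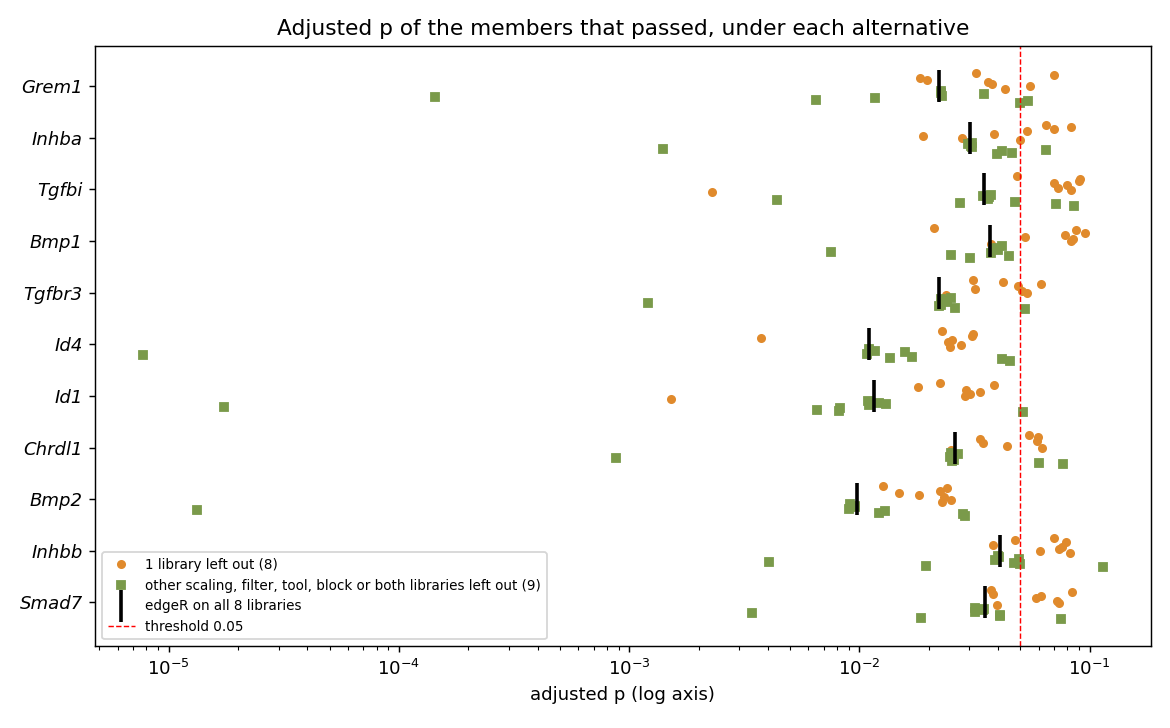
Adjusted p (log axis) of the 11 called members with all 8 libraries (black bars), with 1 library left out (orange) and under the other alternatives (green), against the threshold of 0.05 (dashed). Every orange point of Id4, Id1 and Bmp2 lies left of the threshold, while those of the other 8 members fall on both sides.

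A list of 91 further genes of the pathway gave a similar picture, with 6 of 78 tested genes higher and 4 lower (12.8%, against 16.9% of all genes), and a median of -0.10. Of the 11 tested ligands, co-receptors and cofactors, 0 passed, the TGF-beta co-receptor Eng among them (0.51, adjusted p = 0.131). Of the 20 tested secreted modifiers, 4 rose and 2 fell. Emilin1, a matrix glycoprotein that holds back the processing of TGF-beta precursor, averaged 59.0 ± 9.49 CPM in PBS and 299.6 ± 104 CPM in LPS, a rise of 2.34 (SE 0.25, adjusted p = 0.00109). The small proteoglycan Dcn, decorin, which binds TGF-beta, rose by 1.47 (SE 0.16, adjusted p = 0.00124). Those that fell were Crim1, a membrane protein that binds BMPs, from 153 ± 8.25 to 118 ± 5.7 CPM (-0.38, SE 0.07, adjusted p = 0.0102), and Sostdc1, a secreted BMP antagonist, by 1.11 (SE 0.285, adjusted p = 0.031). Of 23 tested cytoplasmic and nuclear regulators, only the deubiquitinase Usp11 passed (0.47, SE 0.13, adjusted p = 0.0428). Emilin1, Dcn and Crim1 were called in 8 of the 8 fits with 1 library omitted, Sostdc1 in 3 (PBS3, LPS2 or LPS3) and Usp11 in 2 (PBS1 or LPS4). Usp11 was also not called with limma-voom, without the filter or with the pair PBS1 and LPS2 omitted.

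Target genes outside the family gave few calls. Of 9 tested BMP targets, Atoh8, a helix-loop-helix factor, fell from 4.78 ± 1.23 to 2.18 ± 0.68 CPM (-1.13, SE 0.30, adjusted p = 0.0345), and 0 rose. Atoh8 was called in 2 of the 8 fits with 1 library omitted (PBS4 or LPS2), and not with the pair PBS1 and LPS2 omitted. The median of the 9 BMP targets was -0.37, with 8 of the 9 values below 0, against 7857 of 16117 over all genes tested. Msx1 and Msx2 had values of -0.47 and -0.21 that did not pass. Of 15 tested TGF-beta targets, the collagen gene Col3a1 rose by 0.61 (adjusted p = 0.0416) and the smooth muscle gene Tagln fell by 0.97 (adjusted p = 0.047). The median of these 15 was 0.15, with 10 values above 0 and 5 below. Of the 8 fits with 1 library omitted, 1 called Col3a1 (LPS4 omitted) and 1 called Tagln (PBS4 omitted). With the pair PBS1 and LPS2 omitted Tagln was not called, nor was it with limma-voom or without the filter. Col3a1 is also among the fibroblast markers, of which 4 of 7 rose, and the smooth muscle markers beside Tagln fell in 5 of 8. Ccn2 and Skil, also TGF-beta targets, had values of 0.29 (adjusted p = 0.528) and 0.42 (adjusted p = 0.151). The counts in this list depended on single libraries. With PBS2, PBS3, PBS4 or LPS3 omitted, 3 genes rose (3.75% to 3.85%, against 5.53% to 7.15% of all genes). With PBS2 or LPS1 omitted, 1 fell (1.27%, against 3.45% and 5.12%), and with LPS4 omitted 2 fell (2.5%, against 6.11%). With DESeq2, 10 rose (12.8%, against 13%) and 15 fell (19.2%, against 13%).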

How the data were processed

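RNA of 8 cervix samples, extracted with TRIzol, was made into libraries with the VAHTS Universal V6 kit, per the labels' protocols. The table the authors deposited holds unnormalised read counts by gene symbol. The submitters' processing notes name the build mRatBN7.2, fastp, HISAT2, HTSeq and R 3.2.0. With strand setting and annotation not given in the sources used here, overlapping, antisense or near-identical genes could not be told apart. Each column bears a library name found in 1 sample's labels. All 29884 rows name genes.

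Genes were kept by filterByExpr, scaled by TMM and compared with edgeR 4.0.16 in R 4.3.3 (robust quasi-likelihood F tests, no covariate, Benjamini-Hochberg adjustment over 16117 genes). SE is the log2 fold change divided by the square root of F. Fits were tested on simulated data. Alternatives were upper-quartile or RLE scaling, dropping the filter, a filter of 1 CPM in 4 or more libraries, limma-voom 3.58.1 (also with quality weights), DESeq2 1.42.0, each library left out, and the replicate number as a block. Leaving out both PBS1 and LPS2 was added after seeing the data. The 4 within-library ratios used counts plus 0.5 and exact permutation tests. Members were named with library values if called or on a preset list of 20, which gave 24 in all. For each pathway list outside the family, up to 2 called genes per direction were named. 1 tested member is not reported here. Genes named beyond this, such as Gdf3, Bmpr1b, Chrd and Pdgfra, were chosen after their values were seen. The members and lists were chosen with earlier results of these data known. Replicates were no repeat deposits: every pair differed beyond counting noise (chi-square over degrees of freedom 54.1 or more). Depth of 33191039 to 40634384 counts puts 3 counts at 0.0738 to 0.0904 CPM. Promoter windows came from RefSeq (GRCr8), matched by symbol.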

Additional observations from a re-analysis of the deposited data

Results flagged for a closer look

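Among 56 sets of 4 library values (24 named members and 4 ratios, in each group), 4 held a library whose gap to its nearest neighbour took a share of the range above Dixon's critical value. Chance alone gives about 1 in 20 such sets. For Nog, LPS3 was at 17.3 CPM against 5.76 to 6.60 CPM elsewhere in LPS (share 0.926). For Tgfbr1, LPS3 was at 92.0 CPM against 54.3 to 58.7 CPM (share 0.884). For Id4, LPS3 was at 22.1 CPM against 35.6 to 37.8 CPM (share 0.855). For Bmp2, PBS4 was at 17.9 CPM against 11.3 to 12.3 CPM in PBS1 to PBS3 (share 0.854). Over the 60 tested members LPS3 was the highest LPS library for 19 and the lowest for 21.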

How the results depend on the processing

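Changes in counts with 1 library omitted include Gdf3, which the filter then kept in 5 of 8 cases. Of the 11 called members, Bmp2 and Id4 kept the call under all 17 alternatives and Id1 under 16. All 11 kept their direction. Reversals touched uncalled members near 0. Without LPS replicate 3 the values were -0.035 for Tgfbr1, -0.019 for Bmp4, 0.12 for Fst and -0.29 for Id2. Single libraries left out gave Tgfbr1 -0.035 to 0.26, Bmp4 -0.019 to 0.50, Bmp7 -0.075 to 0.21, Fst -0.27 to 0.12, Smad3 -0.047 to 0.066 and Id2 -0.29 to 0.16. Without both PBS replicate 1 and LPS replicate 2, Bmp7 was -0.16 and Smad3 -0.0063, and 3 members rose and 3 fell. With quality weights Bmp4 was -0.031 and Id2 -0.18, and 9 pathway genes outside the family fell. Limma-voom gave -0.039 for Id2. With DESeq2, 11 members fell, 10 outside genes rose and 15 fell, and 2089 genes in all fell (1200 with edgeR). With 1 library left out, 1 to 7 members rose and 4 to 7 fell, 3 to 5 outside genes rose and 1 to 6 fell, and over all genes 904 (PBS2 omitted) to 1385 rose and 563 (PBS2) to 1199 fell, with 752 (PBS3) and 750 (LPS3) among the latter. The ratios ran from 0.69 to 1.64 (Inhba to Fst), 0.65 to 0.94 (Tgfb1 to Tgfb3), -1.51 to -0.62 (Bmp2 to Bmp4) and -2.62 to -1.71 (Bmp4 to Grem1). The replicate number as a block gave 3 members higher and 7 lower (Grem1, Tgfbi and Chrdl1 lost, Smad6 and Gdf7 gained, and Col3a1, Tagln, Atoh8, Sostdc1, Usp11 and Tll1 lost outside the family), and Id2 at -0.038. Same-numbered libraries deviated together with correlations of -0.13, -0.18, -0.09 and 0.21. Among the PBS libraries, only PBS4 correlated best with its own number. LPS4 is numbered by its sample title, and its library name ends in 5. Same-numbered libraries were therefore taken to share only a number. The causes of these shifts were not tested. At this depth, members under about 1 CPM carry wide errors.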
